A study of Mus musculus with 6 samples.

Results

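Pappa2 encodes a secreted metalloprotease that cuts insulin-like growth factor (IGF) binding proteins. It was counted in every lung neutrophil library from mutant mice and in no library from wt littermates. This account covers Pappa2 and 6 genes that act with it: its paralogue Pappa, the stanniocalcin genes Stc1 and Stc2, the growth factor gene Igf1, its receptor gene Igf1r and the binding protein gene Igfbp4. Pappa2 was chosen by its counts, which were 0 in all wt libraries, so its difference between the groups is given as a description with no test. The other 6 were chosen as its partners. These 7 genes were found by symbol among the 55487 genes of the count table.

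The libraries are bulk RNA-seq of Ly6G-positive neutrophils sorted from perfused, enzymatically digested lungs. The mutant group (3 libraries) came from Mrp8-Cre;TGFbR2-fl/fl mice, which carry an S100A8-cre,-EGFP transgene and loxP-flanked Tgfbr2 (allele Tgfbr2tm1Karl). The wt group (3 libraries) came from littermates with the same loxP-flanked Tgfbr2 and no Cre, so the transgene itself and the deletion it can cause cannot be told apart as differences between the groups. The S100A8 promoter is active mainly in neutrophils and their precursors. Tgfbr2 codes for a receptor subunit that binds TGF-beta. No label used here gives an age, and the labels do not tie each library to 1 mouse, so p-values reflect library-to-library spread, which may be technical.

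IGF1 circulates and lies in tissue bound to binding proteins that keep it from its receptor. The pappalysins, Pappa and Pappa2, are zinc proteases of the metzincin family that cut particular binding proteins and so free the growth factor. In human proteins, the Pappa product is known for cutting IGFBP4 and IGFBP5 and the Pappa2 product for cutting IGFBP3 and IGFBP5, and both are inhibited by stanniocalcins. Freed IGF1 acts through the receptor tyrosine kinase Igf1r, which signals through IRS adaptors, PI3 kinase and AKT. In lung, macrophages and mesenchymal cells are known sources of IGF1.

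The paralogues share the catalytic site that defines the family, which is shown here because it is what makes Pappa2 and Pappa the same kind of enzyme. The 63 bases below are coding sequence from GENCODE M21 transcripts, read 5′ to 3′ on the coding strand. Capitals mark the codons of the 3 zinc-binding histidines, the catalytic glutamate and the conserved glycine. The Pappa2 stretch lies on the minus strand at chr1:158857321-158857383 (GRCm38), in exon 4 of the 22 exons of transcript Pappa2-202. The Pappa stretch lies on the plus strand at chr4:65180905-65180967, in exon 4 of the 22 exons of Pappa-201.
Pappa2: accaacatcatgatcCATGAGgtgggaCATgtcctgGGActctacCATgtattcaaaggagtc
Pappa: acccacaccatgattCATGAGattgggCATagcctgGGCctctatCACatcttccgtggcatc
Of these 63 bases 45 were identical, and of the 15 bases in capitals 13 were. The site begins at codon 734 of 1789 in Pappa2 and at codon 559 of 1624 in Pappa. The longest run of identical bases between any transcript of Pappa2 and any of Pappa, on either strand, was 24 bases, and between Stc1 and Stc2 it was 14 bases. Reads were sequenced for 151 cycles from each end, so within each of these pairs a read of full length matches only 1 of the genes exactly.

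Pappa2 (ENSMUSG00000073530.11, minus strand of chromosome 1, 158711727 to 158980490, 27 merged exons of 10294 bases) had 78, 66 and 30 read counts in mutant replicates 1, 2 and 3, against 0, 0 and 0 in the wt libraries. Every mutant library lay above every wt library, and replicate 3 was the lowest of the mutants. On the CPM scale, which divides counts by library size, this was 2.16, 2.24 and 0.923 in the mutants, a mean of 1.77 ± 0.736 (SD, n = 3). The exact 95% Poisson intervals were 1.70 to 2.69 CPM and 1.73 to 2.84 CPM in mutant replicates 1 and 2 and 0.623 to 1.32 CPM in mutant replicate 3. These intervals take each count as an independent read, and on that footing the interval of replicate 3 did not overlap the others. All mutant counts of Pappa2 were even, as was every count of Igf1. If both mates of a read pair were counted, the intervals are too narrow and the gap to replicate 3 is less sure. This was not tested. These reads carry no molecular identifiers, and intervals and floors cover counting error only.

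For a count of 0 a floor of 3 counts was set, which was 0.0938 to 0.0991 CPM in the wt libraries. The exact 95% Poisson interval of a 0 count reaches higher, to 3.69 counts or 0.115 to 0.122 CPM in wt. Folds against that upper end would be lower than those given here. Against the floor of 3 counts, taken per library, the mutant mean was 18.2-fold the mean wt floor. As a point value, the lowest mutant library, at 0.923 CPM, was 9.31-fold the highest wt floor, and its interval reached down to 0.623 CPM. If both mates of a read pair were counted, a floor of 3 pairs would be higher in counts and these folds lower. Pappa2 passed the low-count filter only through the mutant libraries. In every mutant library its level was low: 0.315 to 0.726 TPM, a scale that also divides counts by gene length.

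**Figure D1:**
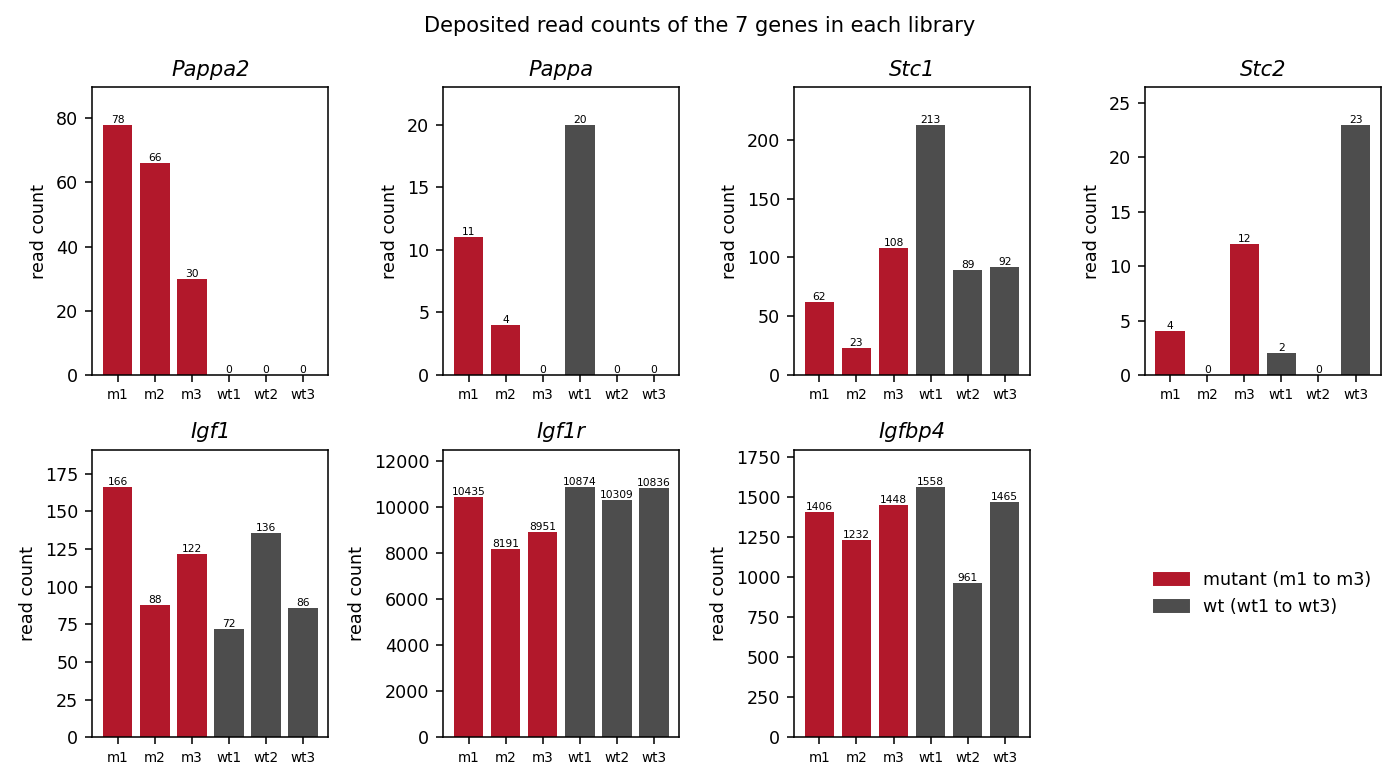
Deposited read counts (y axis, each panel with its own linear scale from 0) of the 7 genes in mutant libraries m1 to m3 and wt libraries wt1 to wt3, 1 bar per library and not scaled for library size. Pappa2 had 78, 66 and 30 counts in the mutants and 0 in each wt library, whereas the bars of the other 6 genes overlap between groups on this unscaled count.

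The pattern of a gene counted in every library of 1 group and in none of the other was found in both directions. Of the 26108 genes with a count in any library, 97 (0.372%) were at 0 in all wt libraries with at least 1 count in each mutant library, and 83 (0.318%) were at 0 in all mutants with at least 1 count in each wt library. With at least 10 counts required in each library of the group, 10 and 6 genes remained. With at least 30 counts, which is the lowest mutant count of Pappa2 itself, Pappa2 was left on the mutant side and 0 genes on the wt side. Nothing is read from its place in this count, since these values chose it.

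The next named genes on the mutant side, by summed mutant count, were Stra6l, Cyp2b9, Ildr2 and Foxl1. Stra6l, a receptor for retinol-binding protein, had 2, 60 and 37 counts in mutant replicates 1 to 3, a sum of 99 against 174 for Pappa2. Cyp2b9, a cytochrome P450, had 22, 41 and 22 counts. Ildr2, an immunoglobulin-like receptor, had 2, 35 and 38 counts, and the forkhead transcription factor gene Foxl1 had 14, 19 and 41. All 4 were at 0 in the wt libraries. Unlike Pappa2, none of the 4 had its lowest mutant count in replicate 3 alone.

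**Figure D2:**
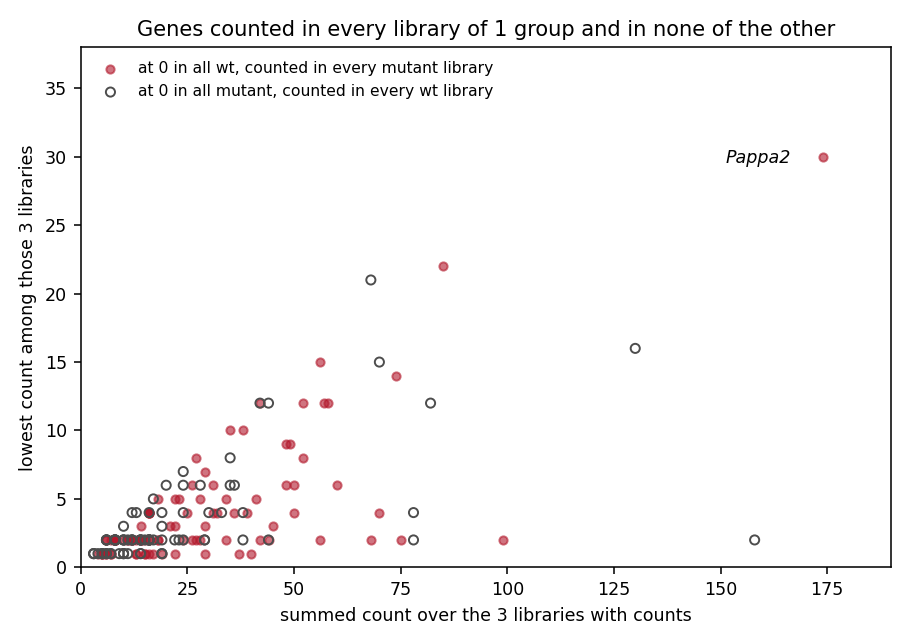
Each point is a gene counted in every library of 1 group and at 0 in all 3 libraries of the other, with its summed count over the 3 libraries that have counts on the x axis and the lowest of those 3 counts on the y axis (linear axes). Filled points are the 97 genes at 0 in wt and open points the 83 genes at 0 in mutants. Pappa2 is at a summed count of 174 and a lowest count of 30. It was chosen by these values, so nothing is read from its place.

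Among the 15774 genes that passed the filter, the pattern of Pappa2 over the 6 libraries was most like those of Mapk15, Mcub, Ap1s1, Dusp5 and Ephx3. Likeness was the correlation of log2(CPM + 0.5) over 6 libraries, which ranged from 0.98 to 1.00 for these 5 genes. The wt libraries all stand at 0 for Pappa2, so this measure mostly ranks how cleanly a gene separates the groups, and it is a description with no test. Mapk15, an atypical MAP kinase, had 26, 19 and 12 counts in the mutants and 0 in each wt library. Ephx3, an epoxide hydrolase, had 47, 50 and 22 counts in the mutants against 6, 0 and 2 in wt replicates 1 to 3, and so lay just outside the rule that selected Pappa2. Mcub, a subunit that restrains the mitochondrial calcium uniporter, had 135, 121 and 95 counts in the mutants against 40, 40 and 32 in wt. Dusp5, a phosphatase of ERK kinases, had 211, 219 and 175 CPM in the mutants against 132, 137 and 119.8 CPM in wt. Ap1s1, a subunit of the AP-1 sorting adaptor, had 68.4, 65.9 and 52.6 CPM in the mutants against 15.9, 17.7 and 15.3 CPM in wt. All 5 were lowest among the mutants in replicate 3, as was Pappa2, a trait that choosing them by likeness favours.

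The genes around Pappa2 did not share its pattern. The nearest named gene with counts on the lower-coordinate side, Astn1, lies 19946 bases away and had 0, 6 and 0 counts in the mutants against 0, 10 and 0 in wt. On the other side Cop1, a ubiquitin ligase gene 251830 bases away, had 1344, 1107 and 1235 counts in the mutants against 1512, 1515 and 1466 in wt. The transcript 1600012P17Rik shares 310 exonic bases with Pappa2 on the same strand and had 0 counts in all 6 libraries.

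The paralogue Pappa (ENSMUSG00000028370.7, chromosome 4, 65124174 to 65357509) was near its detection limit in both groups. It had 11, 4 and 0 counts in the mutants and 20, 0 and 0 counts in wt. The groups overlapped, the highest library was a wt library, and Pappa did not pass the low-count filter, so no test was made. In the mutant libraries Pappa stood at 0.0955, 0.0398 and 0 TPM, against 0.726, 0.703 and 0.315 TPM for Pappa2 in the same libraries.

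The stanniocalcins are secreted glycoproteins that inhibit the pappalysins. Stc1 (ENSMUSG00000014813.9, chromosome 14, 69029238 to 69041804) had 62, 23 and 108 counts in the mutants and 213, 89 and 92 in wt. In CPM this was 1.71, 0.779 and 3.32 in the mutants against 6.996, 2.94 and 2.88 in wt, and the groups overlapped. Its log2 fold change, mutant over wt, was -1.14 ± 0.58 (SE), and its 95% interval ran from -2.42 to 0.15. In edgeR's quasi-likelihood test the adjusted p was 0.798. Stc1 varied 8.98-fold between the lowest and the highest library, and its log2 fold change rested on single libraries: it was -0.58 without wt replicate 1 and -1.77 without mutant replicate 3, the range over all 6 leave-outs. The antisense-strand gene Gm41192, which shares 229 exonic bases with Stc1, had 0 counts in all 6 libraries. Stc2 (ENSMUSG00000020303.2, chromosome 11, 31357307 to 31370074) had 4, 0 and 12 counts in the mutants and 2, 0 and 23 in wt, overlapped between groups and did not pass the filter.

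Igf1, the ligand (ENSMUSG00000020053.18, chromosome 10, 87858265 to 87937042), had 166, 88 and 122 counts in the mutants and 72, 136 and 86 in wt. Its CPM values of 4.59, 2.98 and 3.75 in the mutants lay on both sides of those in wt, which were 2.36, 4.49 and 2.69. The log2 fold change was 0.25 ± 0.39 (SE), its 95% interval ran from -0.62 to 1.12, and edgeR's adjusted p was 0.977. Leaving out 1 library moved it between 0.07 (without wt replicate 1) and 0.58 (without wt replicate 2). Summed markers of interstitial macrophages and monocytes, of 9 genes with 0 listed at 0 everywhere, were at 86.3 to 124.0 CPM in the mutants and 121 to 124 CPM in wt. Most of this sum in every library was 1 gene, Lyve1, so it says little about the other listed genes. Lyve1 was at 58.9, 68.1 and 96.3 CPM in the mutants and 100.8, 92.2 and 96.6 CPM in wt. Summed alveolar macrophage markers were at 147 to 181 CPM in the mutants and 117 to 142 CPM in wt, and summed fibroblast markers at 629 to 1120 CPM in the mutants and 534 to 615 CPM in wt. The largest part of the alveolar macrophage sum in every library was Siglecf, which overlapped between groups. The part of macrophages, monocytes and fibroblasts in the Igf1 values was not tested. In these bulk samples fewer cells of a type and less RNA per cell cannot be told apart.

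Igf1r was the most abundant of the 7 genes per length and the only one besides Pappa2 whose groups did not overlap in CPM. It encodes the receptor tyrosine kinase for IGF1 (ENSMUSG00000005533.10, chromosome 7, 67952827 to 68233668, 16791 exonic bases). Its counts were 10435, 8191 and 8951 in the mutants and 10874, 10309 and 10836 in wt. Scaled for library size these were 288, 277 and 275 CPM in the mutants, a mean of 280.4 ± 7.04, against 357, 340.4 and 339 CPM in wt, a mean of 345 ± 10.2 (SD, n = 3 each). All mutant libraries were below all wt libraries, which held for 6.21% of the genes tested.

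The log2 fold change of Igf1r was -0.30 ± 0.09 (SE), a mutant-over-wt ratio of 0.812, with a 95% interval of -0.50 to -0.10. It did not pass over all genes: the adjusted p was 0.483 by edgeR (unadjusted p of 0.00711, the 230th smallest of 15774) and 0.0675 by DESeq2. Over 13 alternative settings the log2 fold change stayed between -0.32 and -0.28 and the adjusted p between 0.0675 and 0.802. The insulin receptor gene Insr, a close relative of Igf1r, was at 39.9 ± 3.24 CPM in the mutants and 46.5 ± 7.43 CPM in wt and overlapped between groups. Per length, Igf1r exceeded Insr 5.53 to 6.20-fold in the mutant libraries and 5.24 to 7.20-fold in the wt libraries.

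Igfbp4 (ENSMUSG00000017493.12, chromosome 11, 99041244 to 99054392), the binding protein best known as a substrate of Pappa, had 1406, 1232 and 1448 counts in the mutants and 1558, 961 and 1465 in wt. Its CPM was 41.7 ± 2.84 in the mutants and 42.9 ± 10.04 in wt (SD, 3 libraries each), with wt replicate 2 the lowest library at 31.7 CPM and wt replicate 1 the highest at 51.2 CPM. The log2 fold change was -0.04 ± 0.18 (SE), its 95% interval ran from -0.45 to 0.36, and edgeR's adjusted p was 0.997. The sign turned positive, up to 0.11, without mutant replicate 1, wt replicate 1 or wt replicate 3.

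Of the 4 partners tested, 0 passed at an adjusted p under 0.05 by edgeR, DESeq2 or limma-voom, and 1, Igf1r, had an unadjusted p under 0.05 in edgeR. Over all 15774 genes edgeR and limma-voom each called 0.00634% higher and 0% lower, and DESeq2 called 0.514% higher and 0.469% lower. Unadjusted p under 0.05 were reached by 3.51% of all genes with a higher and 3.22% with a lower mutant level. The median log2 fold change of these 4 was -0.17, against 0.01 over all tested genes.

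On the per-length scale the members fell into an abundant pair and a low group. Igf1r stood at 53.5 to 59.5 TPM in the mutants and 67.9 to 72.8 TPM in wt. Igfbp4 came next at 30.5 to 35.5 TPM in the mutants and 24.1 to 39.7 TPM in wt, below Igf1r in every library. Stc1 was at 0.601 to 2.78 TPM in the mutants and 2.34 to 5.70 TPM in wt. Igf1 was at 0.974 to 1.61 TPM in the mutants and 0.817 to 1.52 TPM in wt. The ranges of these genes overlapped in the mutants, whereas in wt every Stc1 value was above every Igf1 value. Pappa2 in the mutants was below Igf1 in each library, and its range overlapped that of Stc1. Stc2 at 0 to 0.251 TPM in the mutants and 0 to 0.475 TPM in wt, and Pappa at 0 to 0.0955 TPM in the mutants and 0 to 0.204 TPM in wt, could not be ordered. Among the 26108 genes with a count, Igf1r ranked 1892 and Igfbp4 3180 by mean TPM, Stc1 11225, Igf1 13811, Pappa2 19016, Stc2 21523 and Pappa 23893. The receptor thus exceeded its ligand 37.1 to 54.9-fold per length in the mutant libraries and 44.7 to 89.1-fold in the wt libraries, ranges that overlapped.

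**Figure D3:**
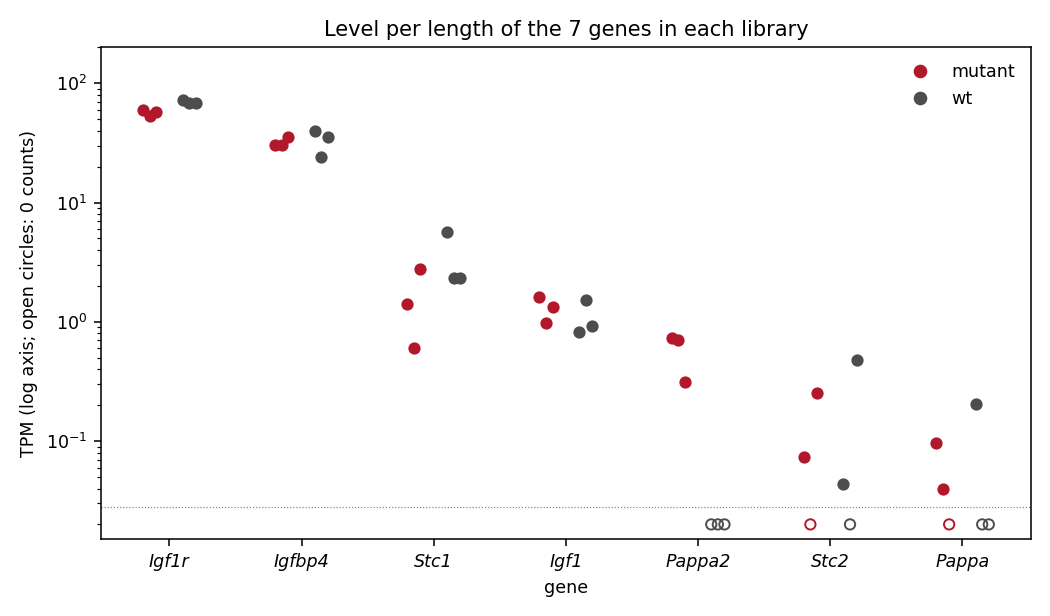
Level per length (TPM, log y axis) of the 7 genes in each library, ordered by their mean, with mutant points left of wt points; open circles under the dotted line are libraries with 0 counts and have no position on the log scale. Igf1r (53.5 to 72.8 TPM) and Igfbp4 (24.1 to 39.7 TPM) stand above the other 5 genes, and Pappa2 has 3 mutant points and 3 wt libraries at 0.

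The remaining IGF genes were followed in 3 lists of 47 genes in all, of which 37 passed the filter. Of these 37, 0 were called by edgeR, DESeq2 or limma-voom, and with no adjustment edgeR put 2 higher and 2 lower past 0.05, beside 3.51% and 3.22% of all genes tested. The log2 fold change was positive in 19 and negative in 18, with a median of 0.02. Listed genes at 0 in all 6 libraries numbered 6, among them Igfbp1, Insrr and the protease genes Elane and Mmp7.

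Of the 11 IGF ligands, receptors and binding proteins, 7 were tested, 6 of them with a positive and 1 with a negative log2 fold change (median 0.14). Igf2, the fetal growth factor, had a summed count of 2 over the 6 libraries. Igfbp3, a known substrate of the human Pappa2 protein, was at 19.0, 26.0 and 31.4 CPM in the mutants and 19.2, 13.1 and 22.6 CPM in wt, and the groups overlapped. Igfbp5, a substrate of both enzymes in human, was at 15.4, 18.4 and 13.0 CPM in the mutants and 17.4, 9.44 and 15.7 CPM in wt, and also overlapped.

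The smallest p in this list belonged to Igfbp6 and Igfbp7, of which Igfbp6 prefers IGF2 and Igfbp7 is a low-affinity relative. Igfbp6 was at 21.5, 24.3 and 28.1 CPM in the mutants and 19.3, 14.0 and 18.1 CPM in wt, all mutants above all wt, which held for 6.82% of the genes tested. Its log2 fold change was 0.52 ± 0.19 (SE), with an adjusted p of 0.615 by edgeR. Igfbp7 was at 21.2, 28.2 and 31.2 CPM in the mutants and 16.3, 22.8 and 18.3 CPM in wt, with an adjusted p of 0.691 by edgeR.

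Markers of other lung cells were also measured in these libraries. The 9 fibroblast markers summed to 629, 743 and 1120 CPM in the mutants and 551, 534 and 615 CPM in wt, and 5 of the 9 (Col1a1, Col3a1, Dcn, Pdgfra and Tcf21) were higher in every mutant library than in every wt library, which held for 6.82% of all genes tested. Of the fibroblast list only Col1a1 passed by DESeq2 (adjusted p of 0.0486), and it did not by edgeR (adjusted p of 0.428). Lum, in the same list, had a log2 fold change of -0.25 and overlapped between groups. Mutant replicate 3 had the highest Igfbp3, Igfbp6 and Igfbp7 and the highest fibroblast sum, and it had the lowest mutant level of Pappa2. In wt, Igfbp3 was lowest in replicate 2 and highest in replicate 3, as was the fibroblast sum. Igfbp6 was also lowest in wt replicate 2 but not highest in wt replicate 3, and Igfbp7 was highest in wt replicate 2. The 8 endothelial markers summed to 1158, 999 and 1246 CPM in the mutants and 1276, 1115 and 1388 CPM in wt. This sum overlapped between groups. Like the fibroblast sum, it was highest among the mutants in replicate 3, and in wt lowest in replicate 2 and highest in replicate 3. The 9 alveolar macrophage markers summed to 181, 178 and 147 CPM in the mutants and 142, 136 and 117 CPM in wt. The largest part of this sum in every library was 1 gene, Siglecf, which overlapped between groups. Siglecf was at 89.3, 108.6 and 67.3 CPM in the mutants and 81.2, 80.3 and 78.9 CPM in wt. The 7 markers of alveolar type 2 cells summed to 596 to 1005 CPM in the mutants and 325 to 601 CPM in wt. Of the alveolar macrophage markers 2 of 9 and of the alveolar type 2 markers 5 of 7 were higher in every mutant library, and Sftpb, a surfactant protein gene, passed by DESeq2 (adjusted p of 0.00216) but not by edgeR (adjusted p of 0.294). The part of these cells in the Pappa2, Igfbp3, Igfbp6 and Igfbp7 values was not tested.

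Of the 12 marker lists, 10 had sums that overlapped between groups, the alveolar type 2 list among them. The 8 neutrophil markers summed to 15419 to 20711 CPM in the mutants and 18131 to 19738 CPM in wt, the highest sums of the 12 lists, and Ly6g, the gene of the sorting marker, was at 14.4 to 33.6 CPM in the mutants and 19.3 to 35.2 CPM in wt. Within that list 2 of 8 genes were lower in every mutant library than in every wt library, beside 6.21% of all genes tested. S100a8, the gene whose promoter the Cre transgene is labelled with, averaged 1149 CPM in the mutants and 1709 CPM in wt, with an adjusted p of 0.0341 by DESeq2 and 0.405 by edgeR. Cxcr2, a chemokine receptor of neutrophils, averaged 2024 CPM in the mutants and 2567 CPM in wt, with an adjusted p of 0.0161 by DESeq2 and 0.294 by edgeR. Of the 6 markers of eosinophils, basophils and mast cells, Epx was at 0 in every library. Cpa3 passed the filter, with 19, 9 and 25 counts in the mutants and 22, 17 and 21 in wt. Ms4a2 and Mcpt8 were counted in mutant replicate 2 alone, at 12 and 6 counts. Ear6 was counted in mutant replicate 1 alone, at 2 counts. Prg2, which encodes an inhibitor of human pappalysin and marks eosinophils, had a summed count of 2. Tgfbr2 itself was at 176, 205 and 181 CPM in the mutants and 186, 185 and 201 CPM in wt. Its count pools all exons, whereas the loxP sites are known to flank a single exon, so it does not check the deletion.

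**Figure D4:**
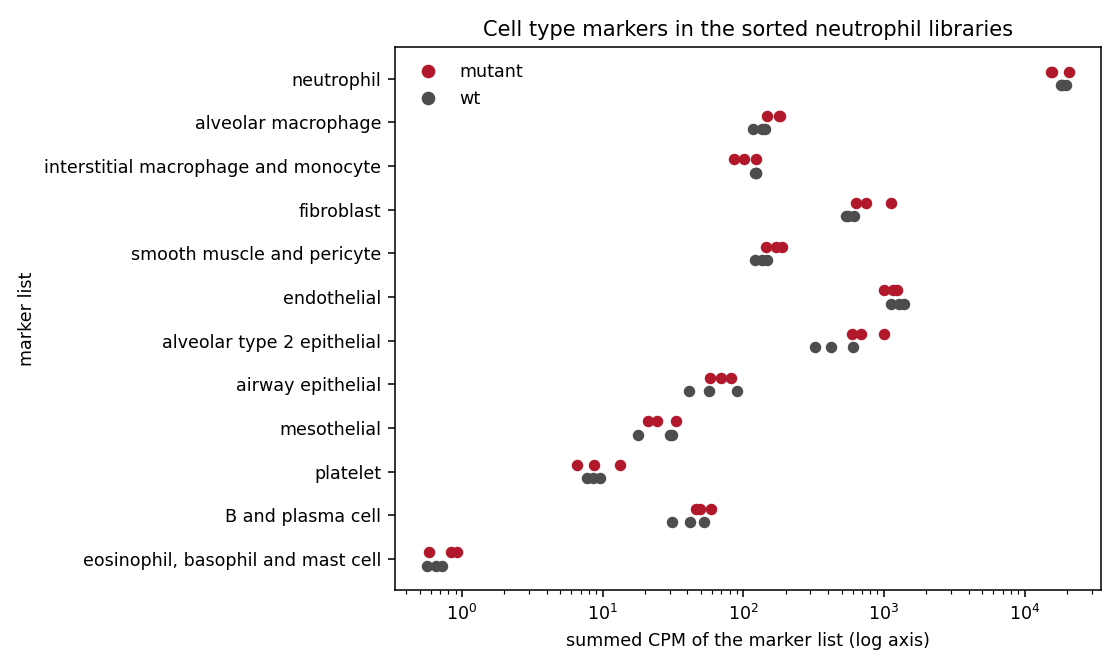
Summed CPM (log x axis) of each of 12 lists of cell type markers, 1 point per library, with mutant libraries drawn above wt libraries in each row. Neutrophil markers are highest at 15419 to 20711 CPM, and the fibroblast and alveolar macrophage rows are those in which all mutant points lie right of all wt points.

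Among the 12 other proteases known to cut IGF binding proteins, together with inhibitors of pappalysin, 6 genes were tested, 5 with a positive and 1 with a negative log2 fold change (median 0.12). The smallest p in this list was that of Ctsd, the lysosomal cathepsin D gene, at 925 ± 162 CPM in the mutants and 836 ± 30.3 CPM in wt (SD over 3 libraries each) with an adjusted p of 0.928 by edgeR. Htra1, a secreted serine protease, followed at 7.09 ± 2.29 CPM in the mutants and 5.56 ± 2.21 CPM in wt. Both genes overlapped between groups.

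All 24 genes listed for IGF1 receptor signalling were tested, 8 with a positive and 16 with a negative log2 fold change (median -0.05), and with no adjustment 0 higher and 2 lower had p under 0.05, beside 3.51% and 3.22% of all genes. Pik3r1, a regulatory subunit of PI3 kinase, was at 77.5, 88.3 and 68.7 CPM in the mutants and 103.6, 99.0 and 95.5 CPM in wt. Pik3ca, a catalytic subunit, was at 32.1, 23.5 and 29.6 CPM in the mutants and 34.5, 40.8 and 40.7 CPM in wt. For both genes, as for Igf1r, every mutant library was below every wt library, and their adjusted p by edgeR were 0.595 and 0.605. The other listed PI3 kinase genes, Pik3cb, Pik3cd and Pik3r2, overlapped between groups, with log2 fold changes of 0.07, -0.04 and 0.38. Pik3cd was the most abundant of the listed PI3 kinase genes, at 405 CPM on average in the mutants and 415 CPM in wt. In all, 2 of the 24 genes were higher and 4 were lower in every mutant library than in every wt library, beside 6.82% and 6.21% of all genes tested.

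**Figure D5:**
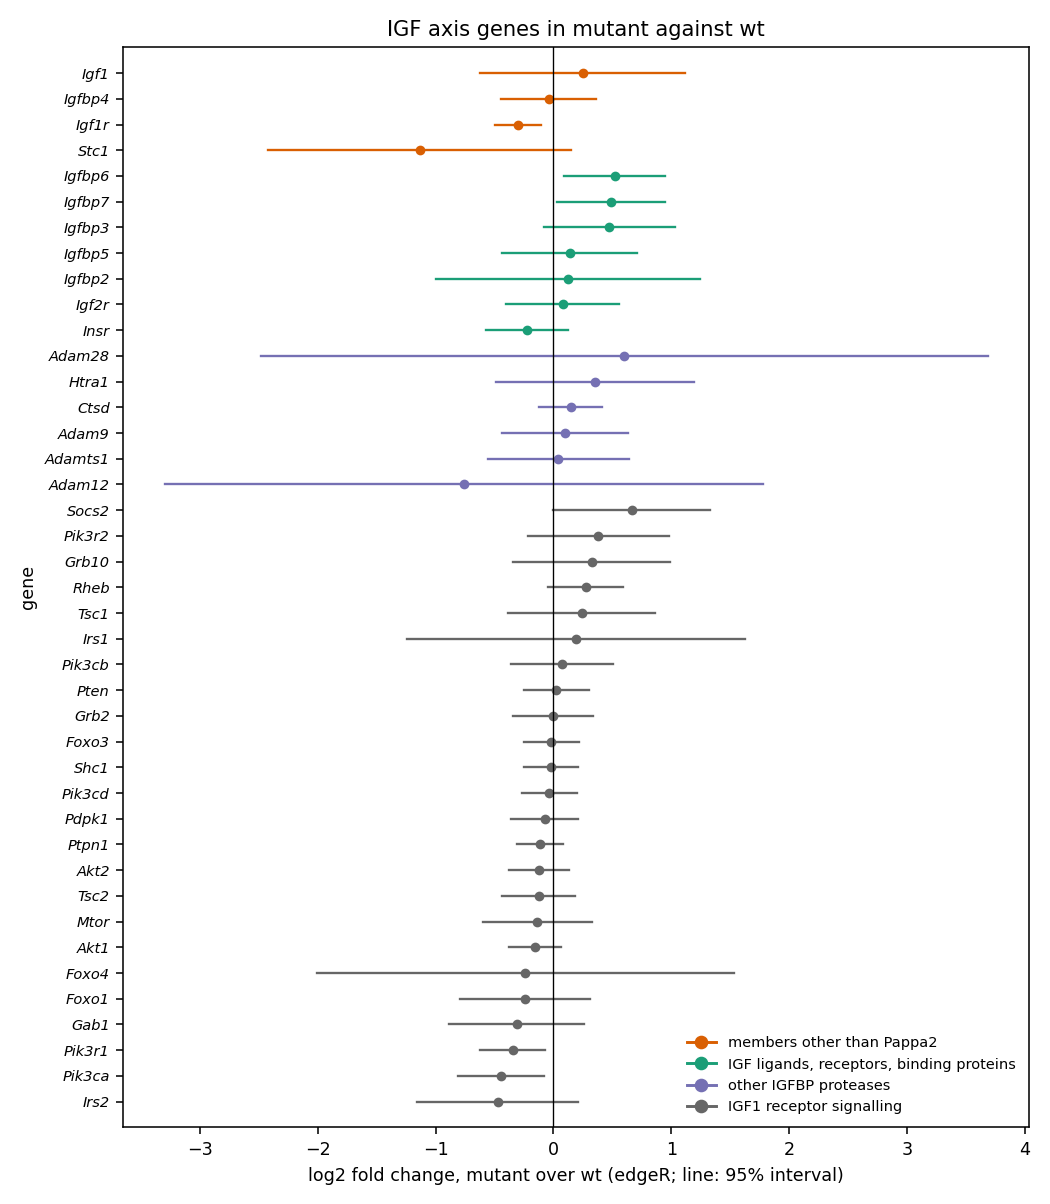
Log2 fold change of mutant over wt (x axis, linear; points are edgeR estimates and lines 95% intervals) for the 4 tested partners of Pappa2 and the 37 tested genes of the 3 IGF lists, coloured by list. Igf1r at -0.30 has a narrow interval below 0, Stc1 at -1.14 has a wide one that includes 0, and none of these genes passed the adjusted threshold.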

How the data were processed

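The authors deposited raw read counts per gene, made with STAR and featureCounts on GRCm38 per the submitters' processing notes. The versions, annotation release and strandedness they used are not stated in the labels. The labels' protocols say that cDNA was made by SMART-Seq v2; this kit does not mark strand, and its amplification adds noise at low counts. Gene length is the authors' summed exon length, per the file headers, and was used for TPM. Symbols came from GENCODE M21 (55094 exact matches, 300 without version, 93 unmatched). Library totals were 30403494 to 35906780 counts.

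Genes passing filterByExpr (minimum count 10) were tested with edgeR 4.0.16 (R 4.3.3): TMM factors 0.972 to 1.03, quasi-likelihood test, Benjamini-Hochberg adjustment at 0.05 over 15774 genes. SE is the log2 fold change over the square root of F. CPM are TMM-scaled. DESeq2 1.42.0 and limma 3.58.1 (voom) were alternatives. In simulated counts for this comparison over 15774 genes, edgeR recovered 10%, 30%, 72% and 76% of genes changed 1.5, 2, 4 and 8-fold and called 6 of 15574 unchanged genes. Replicates of a group correlated at 0.977 to 0.979 across genes (Pearson, log2 CPM), and their counts differed beyond sampling noise. Replicate numbers follow accession order and pair nothing.

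The members and lists were chosen with earlier results of these data known. Genes named are the members, called genes of each list or otherwise the 2 with the smallest p, the 5 most like Pappa2 with an established symbol, the leading genes at 0 in wt, and genes overlapping members. Igf2, Igfbp1, Igfbp3, Igfbp5, Insr, Insrr, Elane, Mmp7, Prg2, Astn1, Cop1, Pik3cb, Pik3cd, Pik3r2 and the marker genes were named after their values were seen. A further listed gene is not reported here.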

Additional observations from a re-analysis of the deposited data

How the results depend on the processing

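The counts of genes called over the whole table depended on the test and the filter. Against 1 higher and 0 lower by edgeR, DESeq2's Wald test called 81 higher and 74 lower, edgeR with no filter on low counts called 41 and 29, and edgeR on genes averaging 10 CPM or more called 14 and 4. Leaving out 1 library at a time gave 0 to 1 higher and 0 to 1 lower, with 0 higher without mutant replicate 1, wt replicate 1 or wt replicate 3 and 1 lower without mutant replicate 2. Under these settings and the other scalings 0 of the further IGF genes passed. Stc1 (12 alternatives), Igf1 (12) and Igf1r (13) kept their sign and stayed short of the threshold, with leave-one-out ranges of -1.77 to -0.58, 0.07 to 0.58 and -0.32 to -0.28; Stc1 and Igf1 could not be tested at a mean of at least 10 CPM. Igfbp4 ranged from -0.22 to 0.11 (log2) when 1 library was left out and turned positive without mutant replicate 1, wt replicate 1 or wt replicate 3; the cause was not tested. The mutant mean of Pappa2 stayed between 1.54 and 2.18 CPM over 8 alternatives. Requiring at least 3 or at least 10 counts in each mutant library left 42 and 10 of the 97 genes at 0 in wt. Of the 5 genes most like Pappa2, 3 were kept with log2(CPM + 0.1) and 4 with log2(CPM + 1). At this depth Pappa and Stc2 rest on few reads. The 0 counts of Pappa2 in wt do not show that it was absent, since the 95% Poisson interval of a 0 count reaches 3.69 counts. The floor of 3 counts is a setting and not a measured detection limit. Amplification without molecular identifiers adds error that counting intervals do not cover.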
